A study of Mus musculus with 4 samples.

Results

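Lgr5, Rgmb, Smoc2, Olfm4, Ascl2, Cdca7 and Soat1 are genes known to be expressed at the base of the intestinal crypt, where the Lgr5+ stem cells reside. They were taken by name as known stem cell markers, and 7 of 7 were present among the 32285 genes measured. Single-cell RNA sequencing was performed on epithelium from the distal small intestine of mice, which all carried the Lgr5-EGFP-IRES-CreERT2 knock-in and the Rosa26-mTmG reporter and had all received 4-OH-tamoxifen, which activates the recombinase in Lgr5-expressing cells. Cells in which the reporter recombines, and their progeny, then carry membrane GFP. The study's title concerns secretory differentiation from Lgr5+ stem cells. The 4 groups were GFP-high clones traced for 72 h (4 mice, 631 cells), GFP-negative control epithelium of the same 4 mice (666 cells), GFP-high clones traced for 48 h (4 other mice, 110 cells) and GFP-negative control epithelium of those mice (586 cells). Villi were removed by scraping, and EpCAM, CD31 and CD45 were stained before the sort. Green fluorescence can come both from the Lgr5 knock-in, while the gene is on, and from the recombined reporter. The brightness set for the GFP-high gate is not given in the sources used here. Selection of Lgr5-expressing cells by the gate and the tracing itself therefore cannot be told apart as sources of a higher level in clones. The GFP-negative control was not free of Lgr5, as 330 of its 1252 cells had Lgr5 RNA. Why these cells were GFP-negative was not tested.

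In the crypt base, Wnt signalling keeps stem cells dividing. LGR5 is a receptor for R-spondins, ligands that raise Wnt signalling by keeping Wnt receptors on the cell surface, and ASCL2 is a transcription factor that is both driven by Wnt and needed for the stem cell state. Daughter cells that leave the base lose these transcripts as they become dividing progenitors and then secretory or absorptive cells.

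The sums of a mouse and gate held 813389 to 6370450 unique molecular identifiers (UMIs) in 72 h clones, 1950263 to 5186012 in 72 h control, 77566 to 298850 in 48 h clones and 1471640 to 5042193 in 48 h control, so the 48 h clones gave the least precise values. Clones of mice 1, 2 and 4 held only 4, 15 and 8 cells. Clones of mouse 3 stood apart: their 83 cells had a median of 1841 UMIs, and the leading hashtag made up 48.6% of their hashtag counts in the median cell, where the other sums had 74.1% to 95.8%. Clone and control cells of a mouse had been placed in opposite pools, and the pools shared 1 barcode string. Of the other cell types the gates could hold, immune markers summed to at most 12.6 CPM (UMI counts scaled for the total of a sum) in any mouse and gate, endothelial markers to at most 15.8 CPM with Cdh5 and Kdr at 0 in every sum, and stromal markers to at most 1.20 CPM with Col1a1, Col1a2 and Col3a1 at 0.

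On mm10 (GRCm38), Lgr5 lies on the minus strand at chr10:115450311-115587780, Rgmb on the minus strand at chr17:15803188-15831039 and Smoc2 on the plus strand at chr17:14279506-14404790. Olfm4 lies on the plus strand at chr14:79984081-80023139, Ascl2 on the minus strand at chr7:142966829-142969264, Cdca7 on the plus strand at chr2:72476159-72486893 and Soat1 on the minus strand at chr1:156424525-156474331. Promoters were read to show the sequence from which members that moved together are transcribed. RefSeq (GRCm38.p6) held 7 promoter entries for 5 of the 7 members, each 250 bases before to 50 bases after a start site. Lgr5 and Smoc2 had no entry, so no motif was searched for in their promoters. The core of the TCF motif, through which Wnt signalling acts on its targets (CTTTGA or CTTTGT, both strands), was present in 1 entry, of Rgmb, against 31.2% of 32851 promoters. The E-box CANNTG, the kind of site that ASCL2 and other basic helix-loop-helix factors bind, was present in the entries of Olfm4 and Ascl2 and in 1 of the 3 of Rgmb, against 72.3% of all promoters, and TATAAA was present in 2 Rgmb entries, against 13.6%. TTTCCCGC, an E2F-type motif, was searched for after the sequences had been seen. Among the 5 members with an entry it was present in Cdca7 alone, against 1.07% of all promoters. None of the motifs overlapped in the sequences printed. A missing motif says only that these letters are not in this window. The Rgmb entry (chr17:15831016-15831315, minus strand) has its TCF core in capitals, 16 bases before the start site, and the Cdca7 entry (chr2:72475969-72476268, plus strand) has its E2F-type motif in capitals, which lies on the minus strand.
Rgmb: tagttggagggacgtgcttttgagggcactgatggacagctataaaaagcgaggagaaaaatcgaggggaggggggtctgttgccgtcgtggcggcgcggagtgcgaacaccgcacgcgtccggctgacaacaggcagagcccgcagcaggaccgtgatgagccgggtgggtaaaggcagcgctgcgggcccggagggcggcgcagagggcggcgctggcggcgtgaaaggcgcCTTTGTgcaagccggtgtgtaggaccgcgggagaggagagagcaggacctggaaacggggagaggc
Cdca7: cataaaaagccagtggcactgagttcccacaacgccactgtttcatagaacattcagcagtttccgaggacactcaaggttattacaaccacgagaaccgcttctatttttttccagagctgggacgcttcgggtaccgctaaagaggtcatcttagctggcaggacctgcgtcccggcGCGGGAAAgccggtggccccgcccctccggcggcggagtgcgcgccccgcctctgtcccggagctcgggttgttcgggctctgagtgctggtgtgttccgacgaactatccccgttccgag

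Cells fell into 14 clusters, made without the 7 members among the genes that set them. A cluster of 244 cells was called stem-like from 8 of 16 other stem cell markers among its 50 leading genes, which included Pdgfa and, with no part in forming it, Lgr5 and Olfm4. Clusters with cell cycle genes were called dividing (594 cells). A cluster of 238 cells led by Ifitm3 and Olfm4 had 3 stem cell markers among its leading genes but few raised in its cells and stayed unnamed, as did a cluster led by Gsdmc3. The order of levels across these classes is a description, since the clusters were made from the same cells.

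All 7 members had high levels in stem-like cells, and for 6 of the 7 the stem-like class stood highest. Lgr5 averaged 274.7 ± 57.3 CPM in stem-like cells (SD, n = 8 sums of a mouse and gate), 152.8 ± 40.7 in the Ifitm3 cluster (n = 8) and 76.5 ± 45.6 in dividing cells (n = 13). The stem-like and Ifitm3 sums did not overlap for Lgr5, whereas those of the Ifitm3 cluster and dividing cells did. Lgr5 was at 13.2 ± 14.6 CPM in secretory progenitor-like cells (n = 9), 0.813 ± 1.04 in goblet-like cells (n = 11) and 0.328 ± 0.802 in enterocyte-like cells (n = 6), ranges that overlapped from one class to the next. In the Gsdmc3 cluster no Lgr5 UMI was found in 4 sums.

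Rgmb, a co-receptor for bone morphogenetic proteins, averaged 174.7 ± 37.9 CPM in stem-like cells (n = 8), 106.7 ± 16.5 in the Ifitm3 cluster (n = 8) and 74.8 ± 25.7 in dividing cells (n = 13), and had 10.1 CPM in enterocyte-like cells. Smoc2, a secreted matricellular protein, averaged 302.3 CPM in stem-like cells, 224.6 in the Ifitm3 cluster and 151.3 in dividing cells, and 9.34 in enterocyte-like cells. Olfm4, a secreted glycoprotein, averaged 6364 ± 1206 CPM in stem-like cells (n = 8), 4654 ± 1547 in the Ifitm3 cluster (n = 8), 2393 ± 807 in dividing cells (n = 13), 341.7 ± 319 in secretory progenitor-like cells (n = 9) and 24.2 ± 6.15 in enterocyte-like cells (n = 6). For these 3 genes the ranges of stem-like cells and the Ifitm3 cluster overlapped, as did those of the Ifitm3 cluster and dividing cells. Cdca7, which works with the chromatin remodeller HELLS, followed the same order, with 284.8 ± 35.1 CPM in stem-like cells (n = 8), 226.2 ± 59.7 in the Ifitm3 cluster (n = 8), 188.2 ± 43.9 in dividing cells (n = 13) and 66.8 ± 24.2 in secretory progenitor-like cells (n = 9).

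Ascl2 and Soat1 kept to other orders. Ascl2 was level across the tuft-like (42.4 CPM, n = 2 sums of 1 mouse), stem-like (39.0 ± 14.9, n = 8), Ifitm3 (38.6 ± 13.3, n = 8) and dividing (34.0 ± 17.6, n = 13) cells, whose ranges all overlapped in that order, and was at 5.15 ± 3.44 CPM in secretory progenitor-like cells (n = 9). Soat1, which esterifies cholesterol for storage, averaged 246.2 CPM in stem-like cells, had 214.2 CPM in the 1 enteroendocrine-like sum, and lay between 68.8 and 138.7 CPM in the Ifitm3, tuft-like, dividing secretory, Paneth-like, secretory progenitor-like, goblet-like and dividing classes. It was low in the Gsdmc3 cluster, with 5.40 CPM, and in enterocyte-like cells, with 1.44 CPM.

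**Figure D1:**
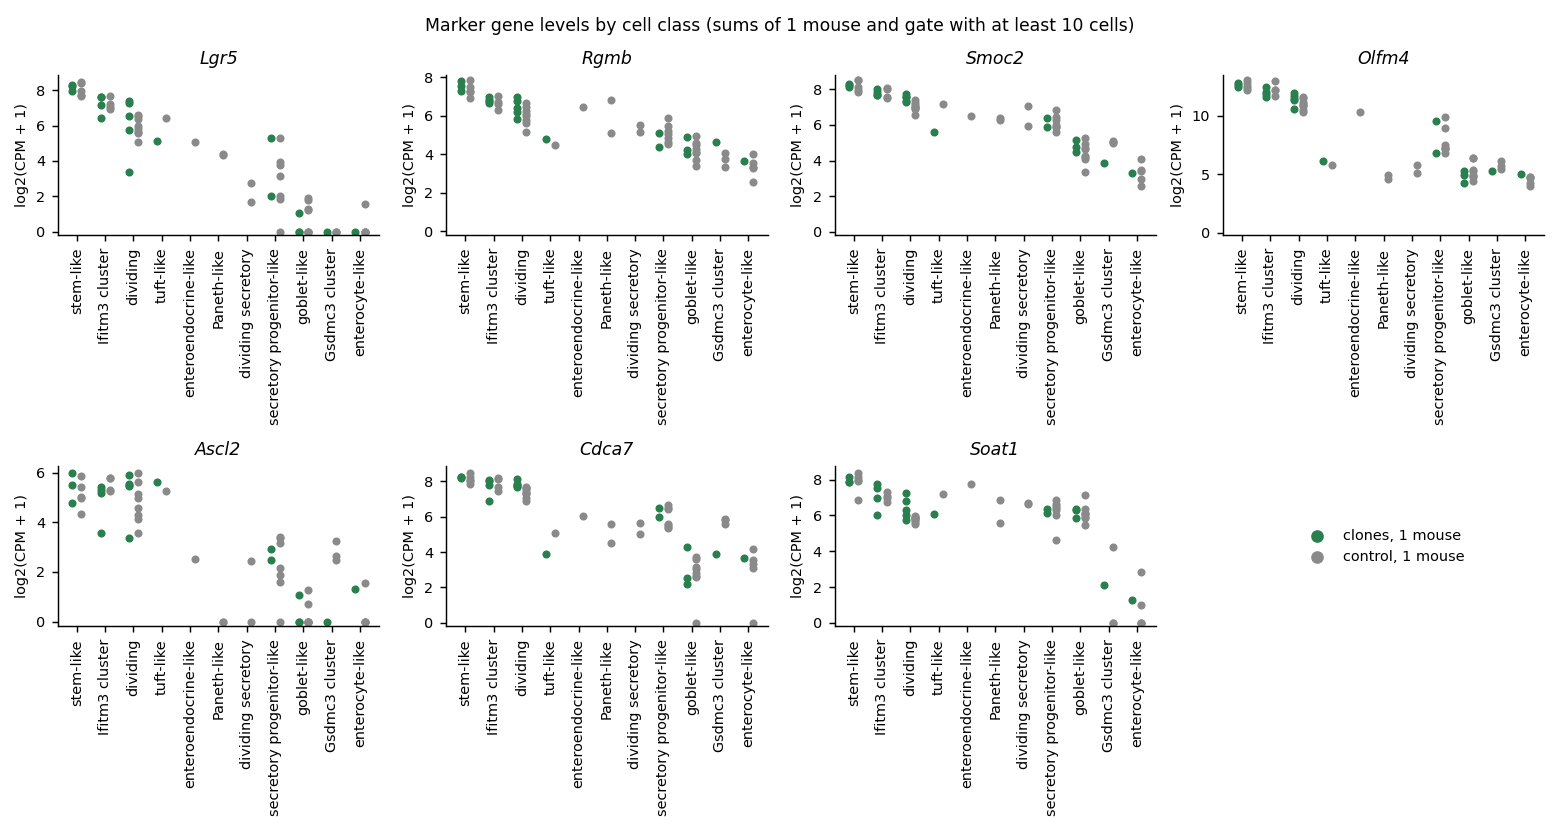
Level of each marker gene, as log2(CPM + 1), in each cell class, with clones (green) left of control (grey); each point is the sum of 1 mouse and gate with at least 10 cells of the class. Lgr5 is at or near 0 in goblet-like and enterocyte-like cells, whereas Soat1 stays between 68.8 and 138.7 CPM on average in 7 classes outside the stem-like cells.

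Stem-like cells made up 12.2% of cells and 9.65% of all UMIs but held 40.4% of Lgr5 UMIs, 34.6% of Olfm4, 27.6% of Rgmb, 27.2% of Soat1, 26.0% of Smoc2, 23.7% of Cdca7 and 22.2% of Ascl2 UMIs. Dividing cells, 29.8% of cells, held 52.7% of the Ascl2 and 47.5% of the Cdca7 UMIs, against 37.2% of Lgr5 and 24.5% of Soat1 UMIs. Olfm4 (41.6%), Smoc2 (39.8%) and Rgmb (38.1%) also had a larger share of their UMIs in dividing than in stem-like cells. By this measure Lgr5 was the member most held by stem-like cells, and Ascl2 and Cdca7 had the highest dividing shares of the members.

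**Figure D2:**
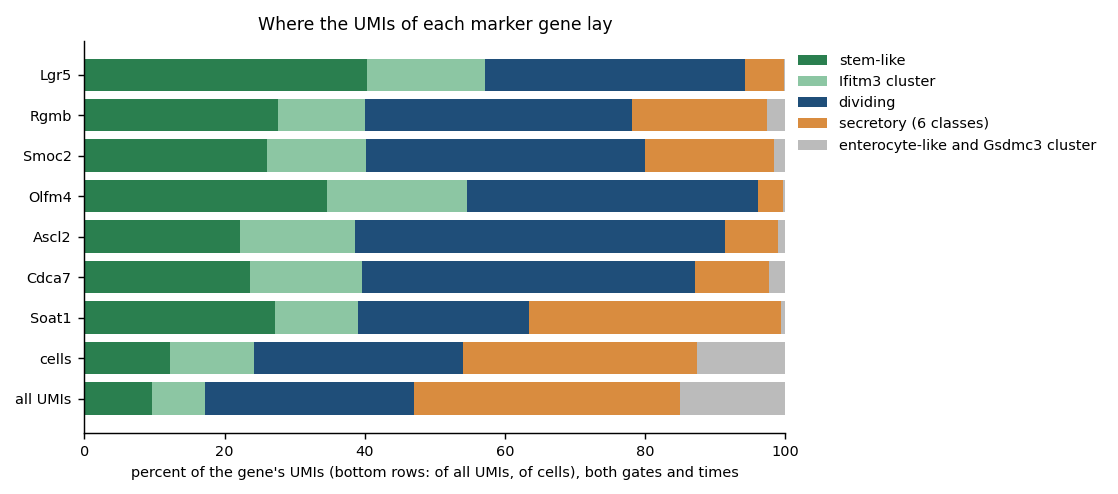
Share of each marker gene's UMIs, in percent, by cell class over both gates and times, with the shares of cells and of all UMIs in the bottom bars. The stem-like segment is 40.4% for Lgr5, against 12.2% of cells.

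Detection per cell gave the same picture once cells were thinned to 1000 UMIs each. Lgr5 had a UMI in 25.8% of stem-like cells (63 of 244, 95% Wilson interval 20.7% to 31.7%), 7.58% of dividing cells and 0 of 170 enterocyte-like cells, a count that allows up to 1.76%. Olfm4 had one in 93.9% of stem-like, 57.6% of dividing and 2.35% of enterocyte-like cells. Ascl2 had one in 3.69% of stem-like and 3.54% of dividing cells, so at this depth most cells of both classes showed none. Without thinning, the shares in stem-like cells were 86.9% for Lgr5, 97.95% for Olfm4 and 38.9% for Ascl2 at a median of 16360.5 UMIs. The shares in enterocyte-like cells were 1.76%, 48.2% and 1.18% at a median of 28110.5 UMIs, and the part of free RNA in them was not tested. Intervals cover counting error only.

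Tuft-like cells held Lgr5 and Ascl2 with little Olfm4. Of 47 tuft-like cells, which lead with Dclk1, Rgs13 and Trpm5, 18 had a Lgr5 UMI (38.3%) and 16 an Ascl2 UMI (34.0%), each in 6 of the 7 mice with such cells, at a median of 10264 UMIs. Thinned to 1000 UMIs, 10.6% of tuft-like cells had a Lgr5 UMI (4.63% to 22.6%), above the 1.76% allowed in enterocyte-like cells, and 4.26% had an Olfm4 UMI (1.18% to 14.25%). The intervals of Lgr5 and Olfm4 overlapped. Ascl2 had a UMI in 0 of 47 at this depth, a count that allows up to 6.38%. At 5000 UMIs it had one in 1 of 12 Lgr5-positive and 7 of 33 Lgr5-negative tuft-like cells. Per 100 Olfm4 UMIs of the same class, tuft-like cells had 97.4 Lgr5 and 76.3 Ascl2 UMIs, stem-like cells 4.54 and 0.707, and enterocyte-like cells 2.63 and 1.75. Lgr5 with little Olfm4 was not particular to tuft-like cells: Paneth-like cells, 23.4% of which had a Lgr5 UMI at a median of 31949 UMIs, had 36.0 Lgr5 and 1.33 Ascl2 UMIs per 100 Olfm4 UMIs, and dividing secretory cells 10.8 and 1.54. The part of free RNA in these counts was not tested. Smoc2 had a UMI in 1 of 12 Lgr5-positive tuft-like cells when thinned to 5000 UMIs, and in 11 of 33 Lgr5-negative ones. Unthinned, it had one in 7 of 18 and 17 of 29, at medians of 9703 and 10712 UMIs, and the difference was not tested.

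Members were found together in single cells. All 7 had a UMI in 28.4% of stem-like clone cells (40 of 141) and 33.0% of stem-like control cells (34 of 103), and in 0 goblet-like and 0 enterocyte-like cells. In dividing cells all 7 had a UMI in 24.1% of clone cells (58 of 241, median 16278 UMIs) and 11.6% of control cells (41 of 353, median 17184 UMIs); 120 of the 241 clone cells came from mouse 8. At 5000 UMIs a cell, dividing cells with a Lgr5 UMI had an Olfm4 UMI in 98.5% of cases (131 of 133) against 64.5% (267 of 414) of those without, a Soat1 UMI in 48.9% against 15.5%, a Rgmb UMI in 50.4% against 20.0% and an Ascl2 UMI in 23.3% against 9.66%. Stem-like cells with and without a Lgr5 UMI lay closer, with Soat1 in 66.2% (104 of 157) and 56.9% (37 of 65) and Smoc2 in 77.7% and 70.8%. In percentage points the gap was thus wider in dividing than in stem-like cells, a description over pooled cells with no test. Cells with both a Lgr5 UMI and a UMI of Atoh1, the transcription factor of the secretory lineage, made up 3.37% of clone cells (25 of 741, 2.30% to 4.93%). They made up 3.35% of control cells (42 of 1252, 2.49% to 4.50%), and these shares could not be told apart at this depth. Each gene alone was less alike between the gates. Lgr5 had a UMI in 330 of 741 clone and 330 of 1252 control cells, and Atoh1 in 137 and 372.

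Clones were then compared with control epithelium, which sets lineage-traced cells beside untraced cells of the same mice. All 7 members averaged higher in clones than in control at both tracing times. In sums over all cells of a mouse and gate, more stem-like cells and more RNA of a gene per cell cannot be told apart. Stem-like cells made up 23.9% ± 10.8 of 72 h clones and 9.77% ± 5.26 of 72 h control cells (SD over 4 mice each). At 48 h they made up 34.2% ± 29.9 of clone and 6.67% ± 4.75 of control cells. That 48 h clone mean gives each mouse the same weight, over shares of 3.61% to 75.0%. Counted over all mice, 13 of 110 cells of 48 h clones were stem-like. Goblet-like cells made up 12.7% of 72 h clones, 17.6% of 72 h control, 4.79% of 48 h clones and 16.2% of 48 h control. The Ifitm3 cluster made up 13.0%, 10.0%, 27.1% and 6.13% in the same order. The part of these shares in the differences was not tested in these sums, and levels within a class are given further on.

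Lgr5 had 135.9, 76.7, 163.8 and 90.9 CPM in the 72 h clones of mice 5 to 8, against 51.3, 68.7, 47.9 and 30.2 CPM in their control cells. In the mice traced for 48 h, it had 135.8, 200.7, 44.2 and 165.9 CPM in clones of mice 1 to 4, against 27.6, 53.6, 45.0 and 67.2 CPM in control. The 72 h groups did not overlap, and at 48 h every mouse but mouse 3, whose clones gave 14 Lgr5 UMIs, had more Lgr5 in clones than the highest control. Over both times Lgr5 averaged 126.7 ± 52.3 CPM in clones and 49.0 ± 15.0 CPM in control (SD, n = 8 each), a log2 difference of 1.35 (SE 0.27) with an edgeR adjusted p of 0.0605. With the mouse as a block, since both gates came from the same 8 animals, it was 1.31 (SE 0.20) with an edgeR adjusted p of 0.00195.

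Rgmb had 86.9, 86.1, 123.1 and 74.9 CPM in 72 h clones of mice 5 to 8, against 50.7, 47.2, 65.0 and 44.5 CPM in control. At 48 h it had 158.4, 141.7, 66.2 and 39.5 CPM in clones of mice 1 to 4, against 43.0, 48.3, 55.7 and 58.0 CPM in control. The 72 h groups were apart, whereas clones of mouse 4 lay below all 48 h control sums. Smoc2 had 180.1, 156.0, 203.4 and 125.9 CPM in 72 h clones, against 103.7, 111.9, 112.4 and 71.2 CPM in control. At 48 h it had 260.3, 200.7, 132.5 and 94.8 CPM in clones, against 70.0, 79.1, 110.3 and 110.9 CPM in control. Here too the groups were apart at 72 h and mouse 4 was the exception at 48 h. With the mouse as a block, the log2 difference over both times was 0.86 (SE 0.16, edgeR adjusted p 0.00495) for Rgmb and 0.79 (SE 0.15, edgeR adjusted p 0.00543) for Smoc2, and both lost the call without mouse 2, with an edgeR adjusted p of 0.0838 for Rgmb and 0.0617 for Smoc2.

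Olfm4 had 3086, 2410, 3900 and 2077 CPM in 72 h clones of mice 5 to 8, against 1513, 1348, 2009 and 904 CPM in control. At 48 h it had 4516, 4325, 1700 and 1485 CPM in clones of mice 1 to 4, against 998, 1224, 1568 and 1403 CPM in control. Olfm4 was higher in the clones of all 8 mice, but clones of mouse 4 were below the highest 48 h control and those of mouse 3 just above it. Over both times it averaged 2937 ± 1197 CPM in clones and 1371 ± 348 CPM in control (SD, n = 8 each), and the log2 difference was 1.03 (SE 0.15) with the mouse as a block, at an edgeR adjusted p of 0.00134.

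Ascl2 had 32.8, 30.9, 32.9 and 25.6 CPM in 72 h clones, against 15.8, 15.99, 28.7 and 14.5 CPM in control. At 48 h it had 56.6, 47.2, 9.46 and 23.7 CPM in clones of mice 1 to 4, on only 3 to 12 UMIs a mouse, against 13.5, 14.8, 11.9 and 13.3 CPM in control. Groups overlapped at both times, through control of mouse 7 at 72 h and clones of mouse 3 at 48 h. The log2 difference of Ascl2 over both times was 0.94 (SE 0.22) with the mouse as a block, at an edgeR adjusted p of 0.0199. It was called in 5 of the 8 fits that left out a mouse, and lost the call without mouse 1, 2 or 8 (edgeR adjusted p 0.0837, 0.212 and 0.077).

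Cdca7 had 187.6, 149.3, 223.3 and 140.0 CPM in 72 h clones of mice 5 to 8, against 111.5, 101.9, 115.2 and 58.5 CPM in control. At 48 h it had 226.3, 224.3, 116.7 and 181.7 CPM in clones of mice 1 to 4, against 94.4, 104.6, 103.3 and 90.6 CPM in control. Cdca7 was the 1 member whose clones and control did not overlap at either time, and all 8 clone sums lay above all 8 control sums. It averaged 181.2 ± 42.4 CPM in clones and 97.5 ± 17.7 CPM in control (SD, n = 8 each), a log2 difference of 0.87 (SE 0.13) with the mouse as a block, at an edgeR adjusted p of 0.00134.

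Soat1 had 127.3, 103.6, 169.5 and 99.8 CPM in 72 h clones, against 79.3, 93.9, 51.2 and 58.9 CPM in control. At 48 h it had 135.8, 181.0, 59.9 and 94.8 CPM in clones of mice 1 to 4, against 86.4, 69.1, 73.5 and 97.9 CPM in control. The 72 h groups were apart, and at 48 h only 2 of 4 mice were higher in clones. Soat1 had the smallest log2 difference of the members over both times, 0.66 (SE 0.18) with the mouse as a block, at an edgeR adjusted p of 0.0477, and it was called in 3 of the 8 fits that left out a mouse, those without mouse 3, 4 or 6.

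**Figure D3:**
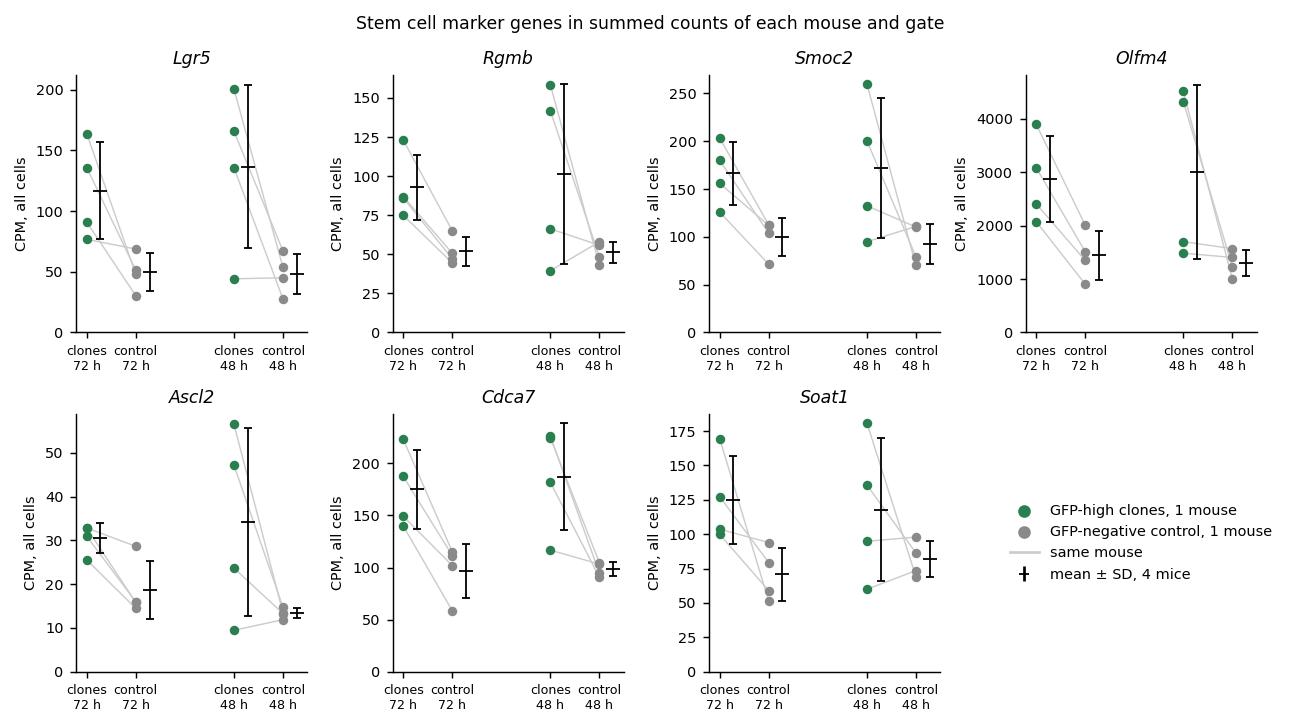
CPM of each marker gene in the sum of all cells of 1 mouse and gate, clones (green) left of control (grey), 72 h left of 48 h; grey lines join the gates of a mouse and bars give the mean ± SD of 4 mice. At 72 h the gates do not overlap for 6 of 7 genes, and 48 h clones spread widely, with Lgr5 between 44.2 and 200.7 CPM.

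Across the members, 7 of 7 had an unadjusted edgeR p under 0.05 without the block, as did 1781 of the 10606 genes tested. After adjustment 0 of 7 passed (edgeR adjusted p 0.0605 to 0.137), and 0.00943% of the genes did (1 gene). That gene was Esr1, named after its value was seen, with a log2 difference of 3.36 (SE 0.43, edgeR adjusted p 0.00457). All mice carried the CreERT2 knock-in and counts were made on mm10. Whether the Esr1 UMIs came from the mouse gene or from the knock-in was not tested. DESeq2 called 6 members higher, where it called 125 of 4849 genes higher and 270 in either direction. Ascl2 had no DESeq2 adjusted p. With the mouse as a block 7 of 7 rose, where 1.19% of all genes did (126 genes; 4.5% changed in either direction). Their median log2 difference was 0.87, against -0.044 over all genes. Leaving out mouse 2 left 3 of 7 called with the block, and leaving out any other mouse left 5 to 7; Lgr5, Olfm4 and Cdca7 were called in 8 of 8 such fits. Without the block, leaving out mouse 3 or mouse 8 gave 5 calls and leaving out mouse 4 gave 3. At 72 h, 6 of 7 members had clones above control without overlap, against 2.57% of genes; at 48 h 1 did, against 1.9%; and over both times 1 did, against 0.0849%. Clones were higher in every mouse for 7 members at 72 h (12.6% of genes), for Olfm4 and Cdca7 at 48 h (4.4%) and for the same pair over both times (1.34%).

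Within each pool, which compares clones and control of different mice, all 7 differences were positive, between 0.28 (Soat1) and 1.08 (Lgr5) on the log2 scale in pool 1 and between 0.96 (Soat1) and 1.48 (Lgr5) in pool 2. In pool 2 the clones of all 4 mice lay above every control sum for each member, and in pool 1, which held the clones of mice 3 and 4, those of 3 of 4 mice did, or of all 4 for Cdca7.

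Taking each time on its own, no member passed the edgeR test without the block at 72 h (adjusted p 0.313 to 0.456) or at 48 h (0.236 to 0.556), and 0% of genes did at either time. At an unadjusted edgeR p under 0.05 there were 7 members and 842 of 10606 genes at 72 h, and 6 members and 1271 genes at 48 h. With the block 7 of 7 members rose at 72 h (log2 0.75 to 1.29, edgeR adjusted p 0.00359 to 0.0453), against 0.745% of all genes (1.87% in either direction). At 48 h Olfm4 alone rose (log2 1.05, SE 0.22, edgeR adjusted p 0.0277), against 0.132% of genes (0.896% in either direction). The 72 h count was 0 without mouse 8, 1 without mouse 7 and 3 without mouse 5. Fitting the mice of 1 time alone with the block, chosen after seeing the data, gave 7 of 7 at 72 h and 4 of 7 at 48 h. In these fits 269 of 10668 genes rose at 72 h (635 changed in either direction) and 27 of 7954 at 48 h (189 in either direction).

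The clone-control difference at 72 h was then set against that at 48 h. No member passed the test, with differences of -0.44 (Ascl2, SE 0.46) to 0.33 (Soat1, SE 0.39) on the log2 scale at an edgeR adjusted p of 1.0, against 0% of genes called. An unadjusted edgeR p under 0.05 was found for 0 members and 554 of 10606 genes. With the block none was called either, against 0.0943% of genes. Clones at 72 h against clones at 48 h differed by -0.14 (Lgr5, SE 0.41) to 0.11 (Soat1, SE 0.30), with 0% of genes called. Control at 72 h against control at 48 h differed by -0.21 (Soat1, SE 0.24) to 0.46 (Ascl2, SE 0.25), with 0 members and 0.0849% of genes called. For Lgr5 the change between times was -0.18 with an SE of 0.53, so a change of moderate size was not detectable with the thin 48 h clones.

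The gates were also compared within a class. In stem-like cells, where 3 clone sums (all 72 h) and 5 control sums had at least 10 cells, Lgr5 had 298.3, 244.8 and 312.6 CPM in clones of mice 5, 7 and 8, against 336.5, 351.0, 242.1, 209.7 and 202.7 CPM in control of mice 3 to 7. The overlap of the gates came from the 48 h control of mice 3 and 4: among 72 h sums all 3 clone sums lay above all 3 control sums (mice 5 to 7), with no test of these alone. The other 6 members overlapped between the gates among 72 h sums too. Olfm4 averaged 6299 ± 668 CPM in clones and 6403 ± 1522 in control, Cdca7 294.7 ± 8.85 and 278.8 ± 44.7, and Soat1 250.5 ± 32.1 and 243.6 ± 79.5 (SD, n = 3 clone and 5 control sums). No member was called (log2 0.07 to 0.34, SE 0.16 to 0.37, edgeR adjusted p 1.0), nor was any of 5700 genes (0%), and DESeq2 called 0. An unadjusted edgeR p under 0.05 was found for 0 members and 251 of the 5700 genes. For Olfm4 the fitted difference, which takes pool and time into account, was 0.12 although its mean was lower in clones. In the Ifitm3 cluster Lgr5 had 194.1, 194.5 and 144.3 CPM in 72 h clones of mice 5, 7 and 8, against 131.9 and 147.4 CPM in 72 h control of mice 5 and 6. Clones of mouse 3, traced for 48 h, had 86.5 CPM, on 8 UMIs, against 200.7 and 122.7 CPM in 48 h control of mice 3 and 4. The gates overlapped at 72 h through mouse 8, and the clone sum was the lower one at 48 h.

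In dividing cells all 7 members averaged higher in clones. Lgr5 had 9.22 CPM in clones of mouse 3, on 1 UMI in 21 cells, and 93.5, 53.2, 169.0 and 153.6 CPM in clones of mice 5 to 8, against a lowest of 32.5, a median of 58.2 and a highest of 96.7 CPM in the control sums of all 8 mice. Clones of mice 7 and 8 lay above every control sum, and those of mouse 3 below. Soat1 had 64.5, 77.4, 53.2, 152.5 and 110.6 CPM in the same 5 clone sums, against 44.1 to 62.6 CPM in control, and all but mouse 6 lay above control. Cdca7 had 212.0, 199.8, 217.6, 281.1 and 229.6 CPM in clones, against 116.3 to 200.8 CPM in control, with mouse 5 just inside that range. Smoc2 averaged 183.1 ± 24.1 CPM in clones (n = 5) and 131.4 ± 22.1 in control (n = 8), and Olfm4 2841 ± 916 and 2112 ± 635.

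Without the block 0 of 7 members passed the edgeR test in dividing cells (lowest adjusted p 0.0581, for Soat1), against 0.106% of 7564 genes (0.0397% higher). All 7 members and 577 of the 7564 genes had an unadjusted edgeR p under 0.05. DESeq2 called 1 member, Soat1, and 20 of 7564 genes, 8 of them higher. With the block 6 of 7 rose, against 0.912% of genes (1.72% changed in either direction): Lgr5 by 1.11 (SE 0.24, edgeR adjusted p 0.0231), Ascl2 by 0.87 (SE 0.21, 0.0344), Soat1 by 0.80 (SE 0.16, 0.0104), Olfm4 by 0.62 (SE 0.10, 0.00225), Cdca7 by 0.60 (SE 0.11, 0.00655) and Rgmb by 0.53 (SE 0.13, 0.0491) on the log2 scale. Smoc2 did not pass (0.40, SE 0.10, edgeR adjusted p 0.0607). Only mice 3 and 5 to 8 had sums of both gates to compare within a mouse. Lgr5 was lower in clones than in control of mouse 3 (9.22 against 54.8 CPM) and mouse 6 (53.2 against 82.6 CPM). Ascl2 was lower in clones of mouse 3 (9.22 against 18.4 CPM) and mouse 7 (58.3 against 61.7 CPM). Both genes were higher in clones of the other mice with both gates. DESeq2 gave Lgr5 a log2 difference of 0.52 (SE 0.50). With the block, the count of members called was 1 without mouse 5 or mouse 8 and 2 without mouse 7. The Lgr5 difference lay between 0.35 and 1.43 over the 8 fits that left out a mouse. Olfm4 was called in all 8, and without mouse 3 all 7 members were called. Mice 1, 2 and 4 had control sums alone in dividing cells, so leaving them out removed no comparison of gates within a mouse.

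The dividing class joins 3 clusters, and both gates held them in like shares. The cluster led by Hells, the chromatin remodeller gene, and Cdc6, a gene of the start of DNA replication, held 34.4% of clone and 36.3% of control dividing cells. The histone gene cluster held 36.5% and 32.6%, and the Cdc20 and Ccnb2 cluster, of mitosis, 29.0% and 31.2%. Lgr5 had 102.7 CPM in clones and 72.6 in control in the first, 138.7 and 54.1 in the histone cluster and 142.6 and 45.7 in the mitotic one, over all mice together. Soat1 had 83.1 and 69.6, 95.8 and 38.7, and 138.9 and 53.2 CPM in the same order. Cdca7 had 259.7 and 221.2 CPM in the Hells cluster, 203.9 and 121.6 in the histone cluster and 230.9 and 141.5 in the mitotic one, highest in the Hells cluster in both gates. Lgr5 and Soat1 were highest in the Hells cluster in control as well, but in the mitotic one in clones. The gap between gates was smallest in the Hells cluster for these 3 genes, a description over pooled cells with no test.

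**Figure D4:**
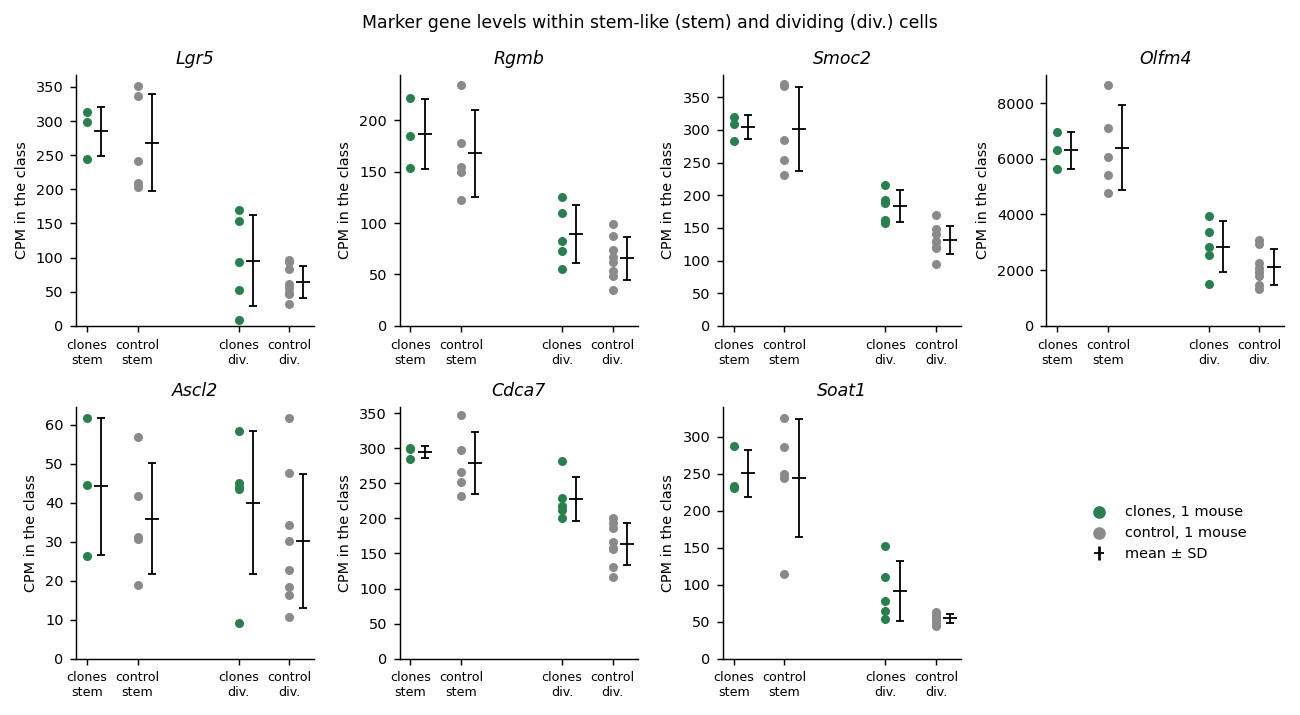
CPM of each marker gene in sums of stem-like (stem) and dividing (div.) cells of 1 mouse and gate, clones (green) left of control (grey), with mean ± SD. Clones and control overlap in stem-like cells for every gene, for Lgr5 through the 48 h control of mice 3 and 4 alone (336.5 and 351.0 CPM), and in dividing cells Soat1 lies between 53.2 and 152.5 CPM in clones, against 44.1 to 62.6 CPM in control.

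**Figure D5:**
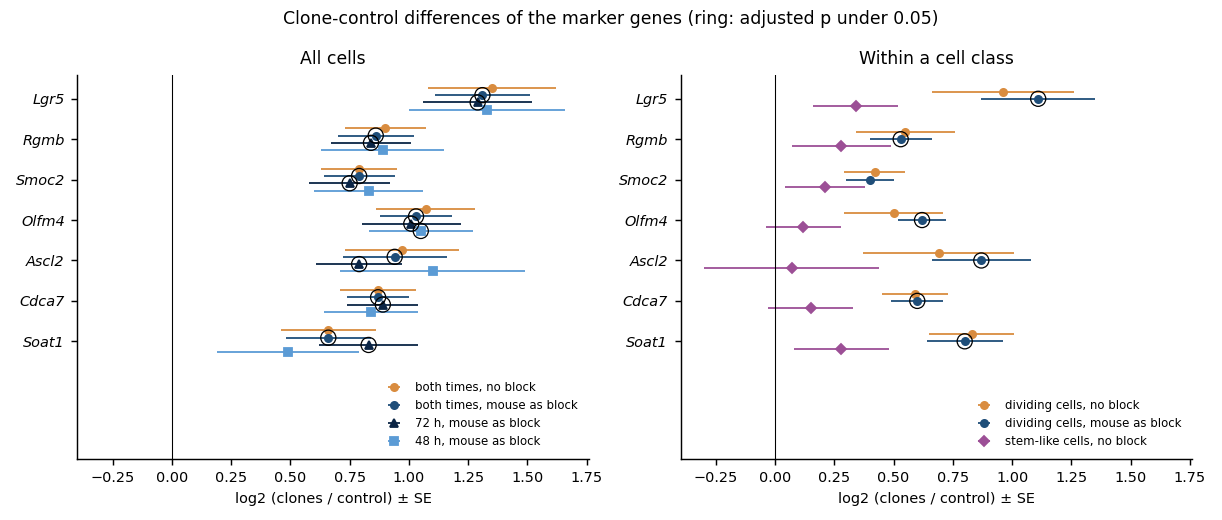
Log2 difference, clones over control, with its SE for each marker gene, from sums of all cells (left) and within a class (right); rings mark an edgeR adjusted p under 0.05. Rings are on the fits with the mouse as a block, 7 of 7 over both times and 6 of 7 in dividing cells, and none is on stem-like cells.

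The members' pathways were followed in lists of other genes, all without a call when the mouse was not a block. With the block, 8 of 15 other stem cell markers tested rose and 0 fell, where 1.19% of all genes rose and 3.31% fell, with a median log2 difference of 0.63 against -0.044 over all genes. Pdgfa, a growth factor, averaged 227.5 ± 93.4 CPM in clones and 102.7 ± 26.7 in control (log2 1.14, edgeR adjusted p 0.00109), and Axin2, a negative feedback regulator of Wnt signalling, 211.5 ± 45.6 and 112.2 ± 26.5 (log2 0.93, edgeR adjusted p 0.000329; SD, n = 8 each, both higher in 8 of 8 mice). Slc12a2, a sodium, potassium and chloride cotransporter (log2 0.49), Clca3b (0.58), Cdk6, a cell cycle kinase (0.63), and Igfbp4, a binding protein of insulin-like growth factors (0.89), rose as well (edgeR adjusted p 0.0088 to 0.0178), and the other two of the 8, Sox9 and Rnf43, are also Wnt targets. Of 11 Wnt targets of the crypt 4 rose, namely Axin2, Rnf43, which removes Wnt receptors (log2 0.74), Cd44, a surface glycoprotein (0.98), and Sox9, a transcription factor (0.56), with a median of 0.58, while Ccnd1 was at 224.4 ± 48.9 CPM in clones and 215.2 ± 39.9 in control (log2 0.03, edgeR adjusted p 0.939). Of 13 Wnt receptor and feedback genes 2 rose, Axin2 and Rnf43, which both other lists also hold, and the median was 0.08. Ctnnb1, which encodes beta-catenin, averaged 227.5 ± 50.7 CPM in clones and 218.8 ± 15.0 in control (log2 0.07, edgeR adjusted p 0.793).

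Of 12 genes of the bone morphogenetic protein pathway, in which Rgmb acts, 0 were called in either direction (median -0.05; none had an unadjusted p under 0.05), with Id1, a target of the pathway, at 147.7 ± 58.6 CPM in clones and 142.3 ± 38.2 in control, and Smad4, its shared signal transducer, at 128.0 ± 41.9 and 110.4 ± 27.0. Around Cdca7, 2 of 7 genes rose, against 1.19% of all genes, namely Hells (log2 0.60, edgeR adjusted p 0.0313) and Mcm5, a replication helicase subunit (0.65, edgeR adjusted p 0.0345). Pcna, the sliding clamp of DNA polymerase, averaged 115.5 ± 26.3 CPM in clones and 102.6 ± 25.4 in control (log2 0.19, edgeR adjusted p 0.426). Around Soat1 the direction was the opposite: 4 of 11 genes of cholesterol synthesis and uptake fell and 0 rose, against 3.31% of all genes that fell, with a median of -0.40. Hmgcs1, an early synthesis enzyme, averaged 179.6 ± 64.4 CPM in clones and 265.9 ± 56.3 in control (log2 -0.56, edgeR adjusted p 0.00887), and Insig1, a sterol sensor, 49.2 ± 19.9 and 88.6 ± 22.3 (log2 -0.77, edgeR adjusted p 0.00736). Sqle (-0.52) and Fdft1 (-0.61) fell as well, and these 4 genes were lower in the clones of 8 of 8 mice.

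Markers of other cell types moved with the gates in the same fit with the mouse as a block. In that fit 3.31% of all genes fell and 1.19% rose, with a median log2 difference of -0.044. Goblet markers fell in 9 of 9 genes tested (median log2 difference -1.68), enteroendocrine markers in 7 of 8 (-3.94), tuft markers in 7 of 9 (-2.34), Paneth markers in 5 of 8 (-1.03) and enterocyte markers in 2 of 6 (-0.63), and none of these rose. Of 10 secretory progenitor markers 4 fell and 1 rose (-0.84), and of 13 dividing cell markers 0 fell and 1 rose (-0.15). Without the block no gene of these lists was called. The summed levels of each of these lists overlapped between the gates at both times. Goblet markers summed to 17230 to 46390 CPM in 72 h clones, against 28280 to 69050 in 72 h control, and to 418.7 to 43510 CPM in 48 h clones, against 27970 to 46080 in 48 h control. Enteroendocrine markers summed to 54.8 to 690.3 CPM in 72 h clones, against 200.6 to 1226 in 72 h control, and to 0 to 429.0 CPM in 48 h clones, against 223.3 to 1897 in 48 h control. The part of these markers in the differences of the members and of the lists was not tested.

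Likeness across classes was described over 21 sums of a class and gate, which share libraries and depth, as Pearson's r of log2(CPM + 1) with no test. Among the members, Olfm4 and Cdca7 (0.951) and Lgr5 and Smoc2 (0.929) went most together, and Ascl2 and Soat1 (0.478) and Soat1 and Cdca7 (0.534) least. Of 5828 genes, those most like Lgr5 were Slco3a1 (0.918), Gm830 (0.896) and Grb7 (0.874), and those most like Ascl2 were Creb1 (0.939), Cdc42ep1 (0.894) and Cnn3 (0.891). Nearest to Soat1 were Ets2 (0.959), Nfix (0.952) and Mbp (0.936), to Rgmb Bex1 (0.941), Ephb3 (0.916) and Arhgef26 (0.911), and to Smoc2 Nol8 (0.922), Slco3a1 (0.912) and Sorbs2 (0.911). Olfm4 and Cdca7 shared 2 of their 3 nearest genes, Ifitm3 (0.941 and 0.966) and Jaml (0.936 and 0.948), the others being Scn2b (0.944) and Npm1 (0.954).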

How the data were processed

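Cells of 8 mice were profiled in 2 pools with a hashtag antibody per mouse. The deposited values are UMI counts per gene and hashtag counts per barcode, made with Cell Ranger 6.1.2 on mm10 per the submitters' processing notes; the deposited barcode and feature lists name columns and rows of those counts. The authors' own hashtag caller and cell filters are not given in the sources used here.

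Hashtags were assigned with HTODemux of Seurat 5.3.0 (quantile 0.99), which removed 493 barcodes with several hashtags (doublets within a mouse remain), and cells with at least 1000 UMIs, 500 genes and under 20% mitochondrial UMIs were kept, 1993 in all. Clusters were made with scanpy 1.11.5 (Leiden, resolution 1, 30 components, 2000 variable genes without the members). Counts were summed per mouse and gate, scaled to CPM (with TMM factors in sums of all cells, without in classes), and tested with the quasi-likelihood test of edgeR 4.0.16 (filterByExpr, pool as covariate, two-sided, Benjamini-Hochberg over all genes, called under 0.05), which was also tested on simulated data. Sums of a class needed 10 cells. The replicate number is the animal, so clones and control of a number are pairs; residuals of paired sums correlated at 0.222 to 0.555 in mice 5 to 8 and -0.001 to 0.09 in mice 1 to 4. Fits with this block stand beside those without. Alternatives were DESeq2 1.42.0, other normalization, filters, hashtag rules and clusterings, and leaving out each mouse. Members and lists were chosen with earlier results of these data known. All 7 members are named, with the 3 genes most like each, and from each list the called genes and the 2 most abundant; 1 gene that this rule names is not reported here. Mice were separate animals; intervals cover counting error only.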

Additional observations from a re-analysis of the deposited data

Results flagged for a closer look

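In 49 groups of 4 mice tested for a sample far from the others, 1 was found, and chance alone flags about 1 in 20: Ascl2 in the 72 h control of mouse 7, at 28.7 CPM against 14.5 to 15.99 CPM in the other 3 mice. Lgr5 UMIs were also present in barcodes that passed the depth filters but stayed outside the comparisons. Lgr5 had a UMI in 33.5% of barcodes with several hashtags (79 of 236, median 16511 UMIs), 26.5% of those with 1 hashtag and 20% to 50% mitochondrial UMIs (353 of 1330, median 5863 UMIs) and 6.95% of those with no hashtag (13 of 187, median 1573 UMIs), above the shares of up to 1.27%, 0.226% and 1.60% that a count of 0 allows. Being above that limit says only that UMIs were present, since no background share was measured in these barcodes; enterocyte-like cells had one in 1.76% (median 28110.5 UMIs). These barcodes could be assigned to no mouse, or were left out as damaged cells, and the cause of the signal was not tested.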

How the results depend on the processing

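The counts of members called depended on the fit. With both gates of a mouse as a replicate block, 7 members were called over both times, 7 at 72 h, 1 at 48 h and 6 in dividing cells, against 0 in each without it; the block changed no call in the change between times, and in stem-like cells it could not be fitted. DESeq2 called 6 over both times, 5 at 48 h and 1 in dividing cells, where it called 125 of 4849, 33 of 3615 and 8 of 7564 genes higher. No low-count filter gave 7 over both times, 7 at 72 h, 5 at 48 h and 4 in dividing cells. Without the pool term 3 were called over both times and 1 in dividing cells. Over both times, 5 were called with mitochondrial UMIs under 10%, 7 under 50%, 5 with a top hashtag of at least 70% and 1 with the hashtag margin rule. Leiden resolutions of 0.6 and 1.5 gave 2 and 1 in dividing cells. Leaving out each mouse gave 0 to 5 calls over both times, and with the block 3 to 7 over both times, 0 to 7 at 72 h, 0 to 4 at 48 h and 1 to 7 in dividing cells. Fits of 1 time alone with the block called 7 at 72 h and 4 at 48 h, where 269 of 10668 and 27 of 7954 genes rose. Fits with the block that left out a mouse or held 1 time alone were chosen after seeing the data, as was keeping dividing secretory cells apart.

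Of the members' differences in all cells, 369 kept side and direction, 189 gained a call and 2 reversed, both Soat1 at 48 h without mouse 2 (-0.094 without the block, where leaving out each mouse gave up to 0.80, and -0.10 with it). In dividing cells none of 203 reversed. In stem-like cells, where no value was called, 12 of 140 reversed: Ascl2 without mouse 5 (-0.46) or 8 (-0.23; up to 0.32 over all mice left out), at mitochondrial shares under 10% (-0.20) and 50% (-0.029), with a higher UMI minimum (-0.41), the margin rule (-0.55) and members among the variable genes (-0.38), Olfm4 without mouse 6 (-0.008; up to 0.46), with the margin rule (-0.042) and members among the variable genes (-0.22), Soat1 at under 10% (-0.024) and Cdca7 with members among the variable genes (-0.10). The causes were not tested. Detection shares rise with depth. Few clone cells in mice 1, 2 and 4, and shallow ones in mouse 3, limit every 48 h value.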
